A study of Mus musculus with 48 samples.

Results

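Mitochondria keep a ribosome of their own, and the genes described here encode its proteins. Members were all genes whose symbol in the platform annotation begins with Mrpl or Mrps and a number, with at least 1 probe above background on 6 or more of 48 arrays. The platform listed 76 such genes, and 69 passed this filter, of 9811 genes measured in all. The 69 comprised 44 Mrpl genes, named for the large subunit, and 25 Mrps genes, named for the small subunit. The other 7 are not given values here: no probe of Mrpl32, Mrpl41 or Mrps36 was above background on any array, and the best probes of Mrps22, Mrpl57, Mrps14 and Mrpl45 were above background on 1, 4, 4 and 5 arrays.

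The study examined left ventricular tissue of male C57BL/6 mice aged 8, 16, 32 or 48 weeks. Hearts were excised and perfused through the aorta with oxygenated buffer (Langendorff mode). After 20 min of stabilisation they underwent either 25 min of normothermic ischaemia of the whole heart and then 45 min of reperfusion (I/R hearts), or normoxic perfusion (normoxic hearts). The treatment protocol gives the normoxic perfusion as time-matched, while the design text speaks of tissue taken before and after ischaemia; if the second holds, time on the perfusion apparatus cannot be told apart from I/R. There were 6 I/R hearts and 6 normoxic hearts at each age, 48 in all, and RNA of each was hybridised to an Illumina bead array. Every heart, normoxic hearts included, had been taken out of the animal and perfused, so no group shows the heart in place.

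The mitochondrial ribosome translates the few proteins encoded by mitochondrial DNA, all of them subunits of the respiratory chain complexes and ATP synthase. All of its proteins are encoded in the nucleus, made in the cytosol and imported, and they assemble on ribosomal RNA made inside the organelle. Many descend from bacterial ribosomal proteins, and others have no bacterial counterpart. The heart depends on this machinery heavily, and in humans inherited defects of several members, MRPL3 and MRPL44 among them, are known for cardiomyopathy. A few names mislead: Mrps30 and Mrps18a sit in the large subunit, and Mrps36 has been reassigned to a metabolic enzyme complex. The arrays measured messenger RNA only, not protein or ribosomes.

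Values below are log2 intensities of the brightest probe of each gene after background correction and quantile normalisation, and differences are on the log2 scale. A probe's level says nothing about its gene's abundance relative to another gene. Of the 69 members, 66 were above background on all 48 arrays. Mrpl39 was above background on 24 of 24 I/R arrays and 22 of 24 normoxic arrays. Mrpl10 and Mrps2 were each above background on 23 of 24 I/R arrays and 24 of 24 normoxic arrays.

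The 2 treatments differed in RNA quality and in the whole profile. The RNA integrity number averaged 7.87 ± 0.296 in I/R hearts and 8.50 ± 0.296 in normoxic hearts (SD, n = 24 each), and in I/R hearts it averaged 8.08, 8.03, 7.75 and 7.60 at 8, 16, 32 and 48 weeks. Between 11072 and 13854 probes were above background on I/R arrays, and between 13362 and 15080 on normoxic arrays. The first principal component of the genes held 55.9% of the variance and separated I/R from normoxic hearts. The second held 7.98% and placed the I/R hearts aged 8 and 16 weeks between -22.2 and -12.5 and those aged 32 and 48 weeks between 8.91 and 20.9, with no overlap. Slide and scan are not given in the sources used here, so a processing batch cannot be told apart from age or treatment. All 9 ventricular cardiomyocyte markers were measured, and 6 rose and 3 fell with I/R. The mean level of the 9 was 14.80 to 14.97 in I/R hearts and 14.43 to 14.72 in normoxic hearts. Of 6 fibroblast markers 4 rose and 1 fell with I/R. Their mean level was 8.42 to 9.74 in I/R hearts and 8.05 to 8.65 in normoxic hearts. Among the 4, Col1a2 and Col3a1 were above background on 0 and 6 of 24 normoxic arrays, and Lum and Pdgfra on 24 of 24. Of 6 endothelial markers 1 rose and 5 fell (mean level 7.86 to 8.89 in I/R hearts and 8.64 to 9.05 in normoxic hearts). The part of RNA quality and cell makeup in the results below was not tested, and in such bulk tissue fewer cells of a type and less RNA per cell cannot be told apart.

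I/R changed the transcripts of most mitochondrial ribosomal proteins, in both directions. Averaged over the 4 ages, 25 of 69 members rose and 31 fell (limma, adjusted p under 0.05). That is 81.2% of members, against 78.9% of all genes tested; 34.6% of all genes rose and 44.4% fell. The median difference was -0.06 for members and -0.07 for all genes, so the share that passed and the median both lay near those of the array as a whole. Most changes were small: the median size was 0.28 for members and 0.37 for all genes. A handful moved much further: 7 members rose at least 2-fold (6.59% of all genes did) and 1, Mrpl9, fell at least 2-fold (4.11% of all genes did). The I/R and normoxic hearts did not overlap for 13 members, 7 higher and 6 lower, where 10.7% of all genes did not overlap (5.96% higher and 4.71% lower). The direction of a small change rested on the scaling. When each array was centred on the median of its detected probes, 19 members rose and 42 fell, and 82.3% of all genes passed. Centred on the median of all probes, which put the median of all genes at -0.59, 7 rose and 62 fell. There 87.7% of all genes passed, and 18 members that rose in the main fit fell. With the RNA integrity number in the model 19 members rose and 26 fell, and 62.7% of all genes passed.

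**Figure D1:**
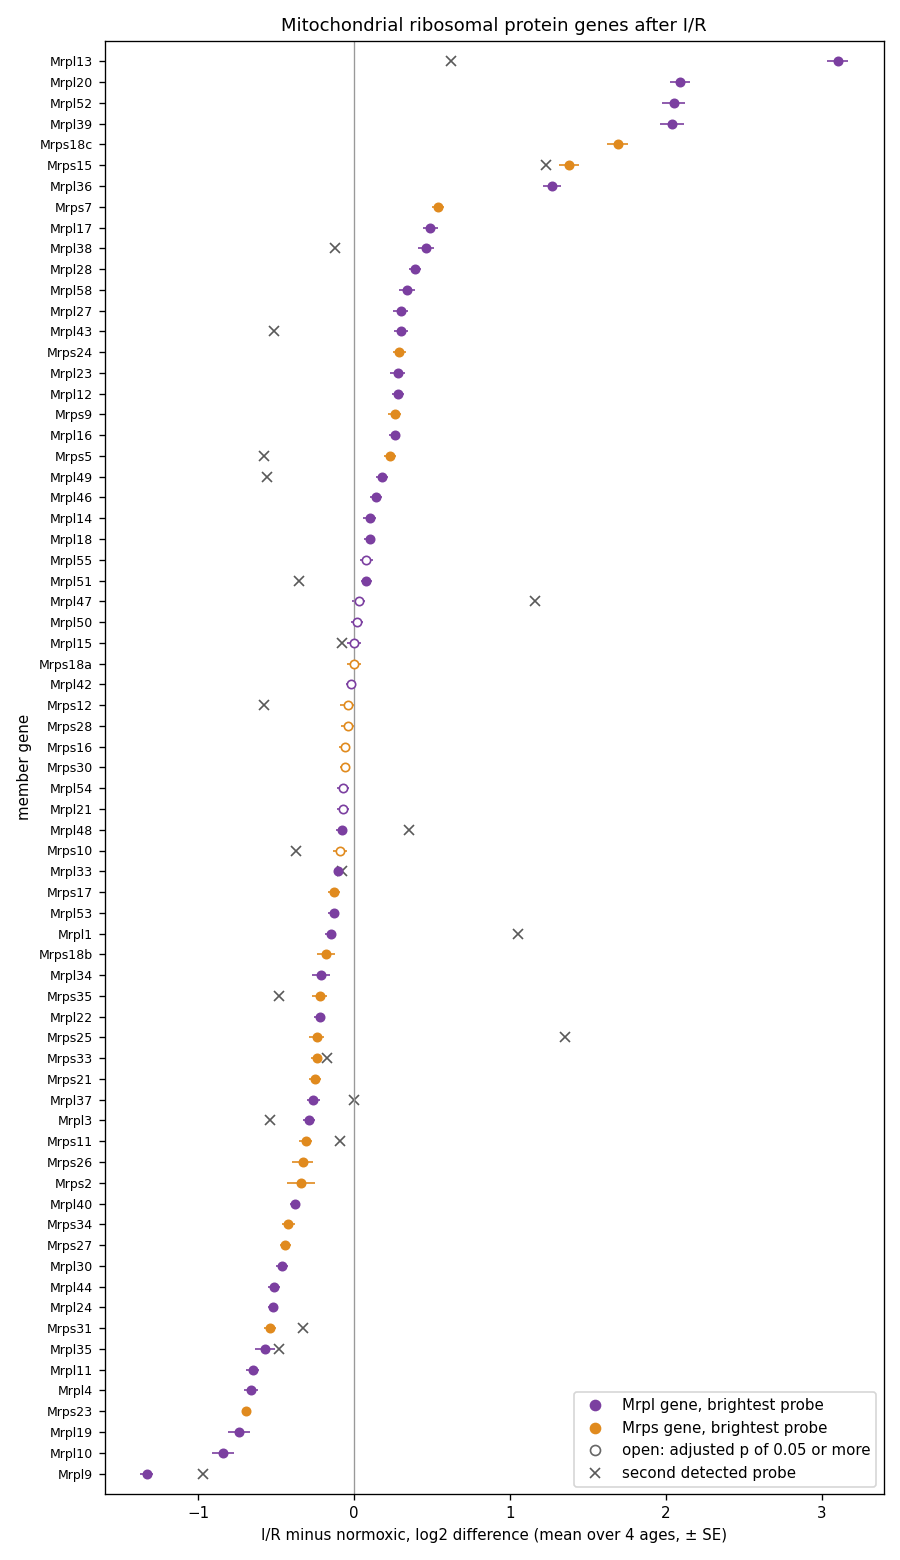
I/R minus normoxic difference (log2, mean over 4 ages, ± SE) for the 69 members, ordered by size, with Mrpl genes in purple, Mrps genes in orange, open circles for adjusted p of 0.05 or more and crosses for a second probe of the same gene. Mrpl13 to Mrpl36 stand 1.27 or more above zero, the next member, Mrps7, stands at 0.54, and Mrpl9 lies lowest at -1.33.

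The 7 large rises were Mrpl13, Mrpl20, Mrpl52, Mrpl39, Mrps18c, Mrps15 and Mrpl36. Mrpl13, Mrpl20 and Mrpl36 are core proteins of the large subunit with bacterial counterparts, while Mrpl52 and Mrpl39 belong to the shell found only in mitochondria. Mrps15 and Mrps18c are small subunit proteins of bacterial type.

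Upstream sequences of the members at both ends of the I/R order, and of the 3 Mrps18 paralogs, are shown so that the genes which moved most can be set beside each other. Each is the 120 bases before the annotated transcription start, 5′ to 3′ on the gene's strand, from RefSeq (build GRCm38.p6); capitals mark a match, on either strand, to CCGGAAG, the core bound by ETS-family factors such as GABP, or to the NRF1 core, which reads GCGCA, any base, GCGC.
Mrpl20: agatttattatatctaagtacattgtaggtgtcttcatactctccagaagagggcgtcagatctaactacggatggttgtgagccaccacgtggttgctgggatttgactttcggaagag
Mrpl52: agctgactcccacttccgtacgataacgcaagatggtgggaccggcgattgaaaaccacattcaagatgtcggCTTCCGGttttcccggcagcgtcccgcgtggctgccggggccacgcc
Mrpl9: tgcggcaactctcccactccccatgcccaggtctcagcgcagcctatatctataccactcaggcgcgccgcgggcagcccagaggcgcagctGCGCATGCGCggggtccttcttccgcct
Mrpl10: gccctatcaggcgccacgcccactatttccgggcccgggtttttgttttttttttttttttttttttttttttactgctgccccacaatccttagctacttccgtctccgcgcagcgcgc
Mrps18a: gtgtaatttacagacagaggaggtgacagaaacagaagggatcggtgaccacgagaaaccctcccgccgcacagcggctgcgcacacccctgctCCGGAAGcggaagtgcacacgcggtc
Mrps18b: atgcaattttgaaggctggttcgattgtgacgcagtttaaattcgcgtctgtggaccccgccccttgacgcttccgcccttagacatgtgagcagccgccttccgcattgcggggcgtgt
Mrps18c: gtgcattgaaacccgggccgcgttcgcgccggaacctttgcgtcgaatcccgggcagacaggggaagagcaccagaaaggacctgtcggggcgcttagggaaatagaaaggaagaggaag

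The stretches lie at chr4:155802758-155802877 (Mrpl20, plus strand), chr14:54426789-54426908 (Mrpl52, plus), chr3:94443216-94443335 (Mrpl9, plus), chr11:97041462-97041581 (Mrpl10, plus), chr17:46110884-46111003 (Mrps18a, plus), chr17:35916441-35916560 (Mrps18b, minus) and chr5:100798639-100798758 (Mrps18c, plus). The RefSeq table gave a window from 250 bases before to 50 after the start for 60 of the 69 members, and not for Mrpl13 or Mrpl19. NRF1, GABP and YY1 are background names here: they are known to bind promoters of many nuclear genes for mitochondrial proteins. Over the whole 300-base windows and both strands, the ETS core CCGGAAG was present in 24 of 60 members (40.0%), against 9.93% of the 27025 genes in the table. The NRF1 core was present in 16.7% of members and 5.19% of all genes, and the YY1 core AAGATGGCG in 13.3% of members and 1.64% of all genes. At least 1 of the 3 was present in 61.7% of members and 15.1% of all genes, and matches to different cores never overlapped in a member. CCAAT was present in 38.3% of members and 41.1% of all genes, and TATAAA in 8.33% of members and 15.7% of all genes. The cores were on both sides of the I/R order: the ETS core was present in 8 of 23 members that rose and 12 of 27 that fell, and the NRF1 core in 5 and 5 of these. Mrps18b and Mrps18c also hold the ETS core, outside the stretches printed. A match is a run of letters, not a measured binding site.

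Mrpl13 had the largest difference of all members. Its lowest, median and highest values were 9.35, 9.91 and 10.41 in I/R hearts, against 6.35, 6.82 and 7.31 in normoxic hearts. The groups were far apart with no overlap, a difference of 3.10 ± 0.0696 (SE; 8.59-fold; limma, adjusted p = 3.37e-35). The second probe of Mrpl13 was dim, above background on 6 of 24 I/R arrays and on none of 24 normoxic arrays. Its measured means of 5.72 and 5.10 differed by 0.62 (limma, adjusted p = 4.58e-11). Most of these signals were not above background, so the size of that difference is that of the measured signals only. The size of the Mrpl13 rise therefore rests on 1 probe.

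Mrpl20 had 10.76, 10.99 and 11.44 as its lowest, median and highest values in I/R hearts, against 8.51, 8.93 and 9.28 in normoxic hearts. Mrpl52 had 9.06, 9.50 and 9.84 in I/R hearts, against 6.87, 7.45 and 7.94 in normoxic hearts. For both genes every I/R heart lay above every normoxic heart, with differences of 2.09 ± 0.0616 and 2.05 ± 0.0749 (limma, adjusted p = 3.64e-31 and 1.10e-27). Mrpl39, which is related in sequence to threonyl-tRNA synthetase, had 7.43, 8.06 and 8.82 in I/R hearts, against 5.29, 6.12 and 6.80 in normoxic hearts. Its difference was 2.04 ± 0.0774 with no overlap (limma, adjusted p = 4.24e-27).

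Among small subunit genes, Mrps18c had 10.27, 10.62 and 11.06 in I/R hearts, against 8.54, 8.89 and 9.49 in normoxic hearts, a difference of 1.69 ± 0.0649 (limma, adjusted p = 7.42e-27). Mrps15, a protein that binds the small ribosomal RNA, had 9.18, 9.88 and 10.32 in I/R hearts, against 7.80, 8.44 and 8.82 in normoxic hearts. Again neither gene showed overlap between treatments, and Mrps15 differed by 1.38 ± 0.0646 (limma, adjusted p = 1.21e-23). Its second probe gave 1.23 ± 0.0670 (adjusted p = 2.88e-21). Of the 7 large rises Mrpl13 and Mrps15 alone had a second detected probe. Mrpl36 had 9.42, 9.78 and 10.19 in I/R hearts, against 8.06, 8.50 and 8.98 in normoxic hearts, and rose by 1.27 ± 0.0589 (limma, adjusted p = 9.29e-24). These 7 genes stayed higher in I/R hearts under each scaling tried, with differences of 0.54 to 2.43 when arrays were centred on all probes and of 0.82 to 1.88 in the authors' deposited values.

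The next rises were of another order. Mrps7, a protein of the small subunit's head, had 9.98, 10.28 and 10.62 in I/R hearts, against 9.40, 9.80 and 10.01 in normoxic hearts, so that the groups overlapped slightly. It rose by 0.54 ± 0.0387 (limma, adjusted p = 7.78e-17). Mrpl17, near the exit of the peptide tunnel, rose by 0.49 ± 0.0483, Mrpl38 of the large subunit by 0.46 ± 0.050, Mrpl28 by 0.39 ± 0.0370 and Mrpl58 by 0.34 ± 0.0532. Mrpl58 is the peptidyl-tRNA hydrolase that releases stalled chains. These 5 genes fell instead when arrays were centred on the median of all probes, and the second probe of Mrpl38 gave -0.12 (limma, adjusted p = 0.343).

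**Figure D2:**
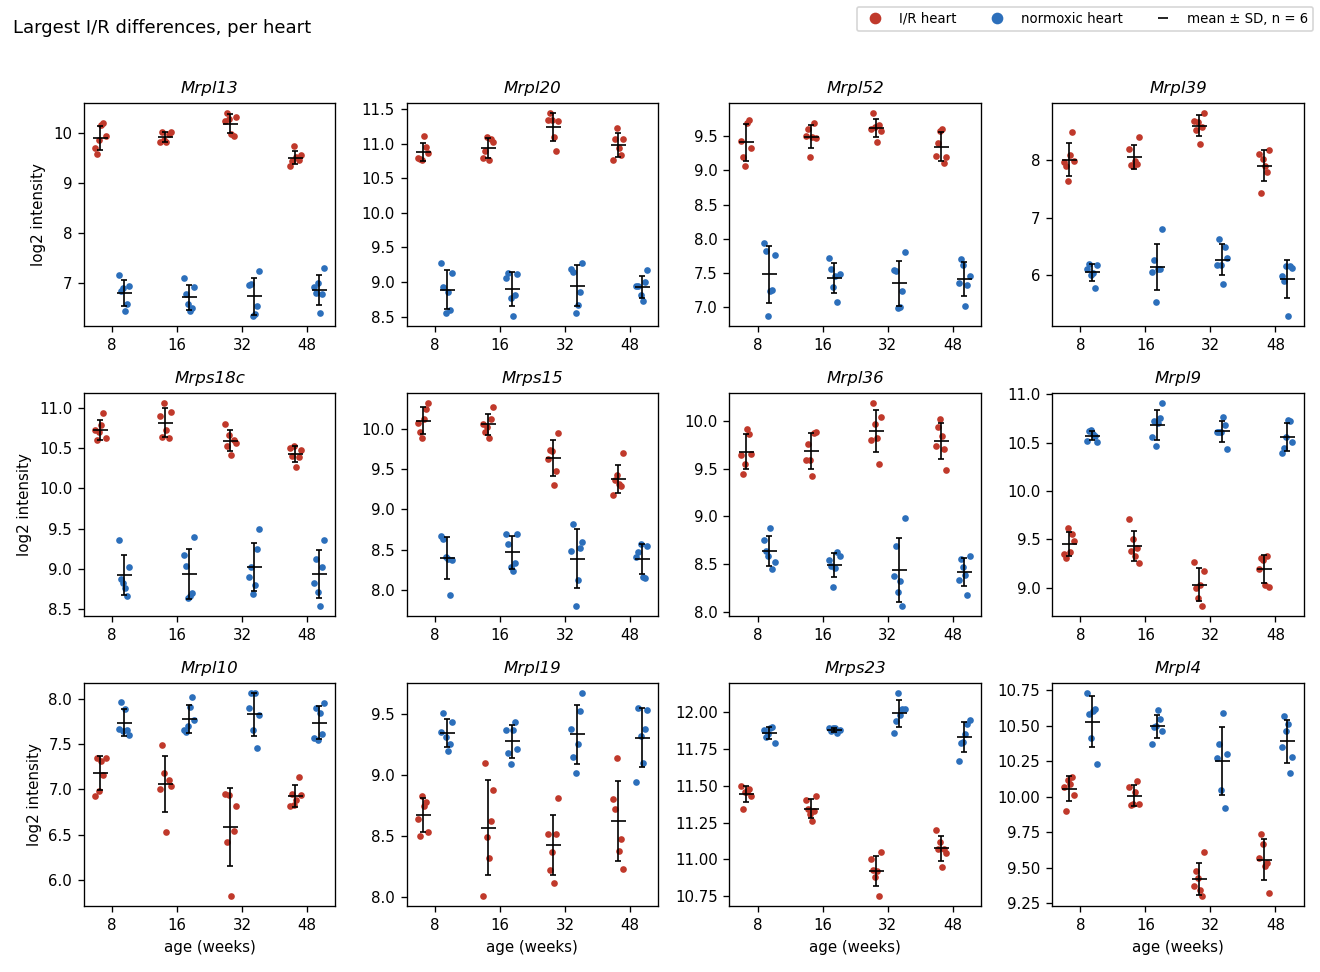
Log2 intensity per heart by age (weeks, x axis) for the 7 members that rose at least 2-fold and the 5 with the largest falls, I/R hearts in red to the left of normoxic hearts in blue, with mean ± SD (n = 6) in black. In the first 7 panels every red point lies above every blue point; Mrpl9 and Mrps23 show the reverse, while Mrpl10, Mrpl19 and Mrpl4 overlap slightly.

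On the other side, Mrpl9, a large subunit protein of bacterial type, had 8.81, 9.31 and 9.71 in I/R hearts, against 10.39, 10.61 and 10.91 in normoxic hearts. Every I/R heart lay below every normoxic heart, with a difference of -1.33 ± 0.0418 (limma, adjusted p = 3.55e-30). A second probe of Mrpl9 gave -0.97 ± 0.0526 (adjusted p = 2.41e-21). Mrpl9 is thus the member whose fall was the largest by the brightest probe and was found by both.

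Transcripts for proteins at the base of the stalk that recruits translation factors fell. Mrpl10 had 5.82, 6.95 and 7.49 in I/R hearts, against 7.46, 7.73 and 8.06 in normoxic hearts. Mrpl11 had 8.93, 9.22 and 9.58 in I/R hearts, against 9.69, 9.89 and 10.17 in normoxic hearts. The treatments overlapped by a sliver for Mrpl10 and not for Mrpl11. Mrpl10 differed by -0.84 ± 0.0690 and Mrpl11 by -0.65 ± 0.0426 (limma, adjusted p = 6.68e-15 and 3.37e-18). Mrpl12, the protein that forms the stalk itself, went the other way by 0.28 ± 0.0390 (limma, adjusted p = 1.88e-08), a direction that turned to -0.37 when arrays were centred on all probes.

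Mrpl19, at the interface between the subunits, had 8.01, 8.53 and 9.14 in I/R hearts, against 8.94, 9.34 and 9.67 in normoxic hearts. Mrps23, a small subunit protein found only in mitochondria, had 10.75, 11.23 and 11.50 in I/R hearts, against 11.67, 11.88 and 12.13 in normoxic hearts. Mrpl4, which lines the peptide exit tunnel, had 9.30, 9.82 and 10.14 in I/R hearts, against 9.92, 10.46 and 10.73 in normoxic hearts. Mrps23 showed no overlap, and the other 2 overlapped. The differences were -0.74 ± 0.0704 for Mrpl19, -0.69 ± 0.0280 for Mrps23 and -0.66 ± 0.0437 for Mrpl4 (limma, adjusted p of 5.80e-13, 4.70e-26 and 4.46e-18).

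The remaining large falls were Mrpl35 (-0.57), Mrps31 (-0.54), Mrpl24 (-0.52), Mrpl44 (-0.51), Mrpl30 (-0.46) and Mrps27 (-0.44), with limma adjusted p between 5.34e-19 and 1.19e-10. Mrpl24 sits beside the tunnel exit, Mrpl44 resembles the RNA-cutting enzyme RNase III, and Mrps27 is an RNA-binding pentatricopeptide protein. The I/R and normoxic hearts did not overlap for Mrps31, Mrpl24 or Mrpl44, and did for the other 3. The second probe of Mrps31 gave -0.33 (limma, adjusted p = 5.54e-09). That of Mrpl35 was above background on 4 of 24 I/R arrays and 23 of 24 normoxic arrays, and its measured signals differed by -0.48 (adjusted p = 1.55e-06). Mrpl3, linked in humans to cardiomyopathy, fell by 0.29, and its second probe by 0.54.

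The other members changed little or did not pass the test. The 13 that did not pass were Mrpl55, Mrpl47, Mrpl50, Mrpl15, Mrps18a, Mrpl42, Mrps12, Mrps28, Mrps16, Mrps30, Mrpl54, Mrpl21 and Mrps10, with differences of -0.09 to 0.08. Mrps12, the protein at the decoding centre, was at -0.04 ± 0.0480 (limma, adjusted p = 0.419), although its second probe gave -0.58 (adjusted p = 8.30e-18). The 3 Mrps18 paralogs, which descend from 1 bacterial protein and occupy different sites, differed from each other: Mrps18c rose by 1.69, Mrps18b fell by 0.18 ± 0.0554 (limma, adjusted p = 0.00375), and Mrps18a was at 0.00 ± 0.0433 (adjusted p = 0.975). Mrps18a had 10.16, 10.56 and 10.87 in I/R hearts, against 10.16, 10.56 and 10.86 in normoxic hearts, which is complete overlap. Only Mrps18c of these is assigned the ancestral site in the small subunit.

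Split by subunit name, 19 of 44 Mrpl genes rose and 18 fell, and 6 of 25 Mrps genes rose and 13 fell. The median difference was 0.01 for Mrpl genes and -0.13 for Mrps genes, beside -0.07 for all genes. The shares that passed were 84.1% and 76.0%, beside 78.9% of all genes (34.6% higher and 44.4% lower). By gene number, 16 of 38 genes numbered like bacterial proteins (Mrpl up to 36, Mrps up to 21) rose and 17 fell. Of the other 31, with Mrps18a and Mrps18b placed among them, 9 rose and 14 fell. Both sets had a median of -0.06, and 86.8% and 74.2% passed. This is a split by name, and not all of the 31 are found only in mitochondria. Whether these subsets differ was not tested.

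The response was present at each age. Of 69 members, 38 passed at 8 weeks, where 52.9% of all genes passed: 17 were higher (22.3% of all genes) and 21 lower (30.6%). At 16 weeks 40 passed (54.3% of all genes), 19 higher (22.3%) and 21 lower (32%). At 32 weeks 50 passed (65.6% of all genes), 19 higher (27.6%) and 31 lower (38%). At 48 weeks 48 passed (63.4% of all genes), 25 higher (29.2%) and 23 lower (34.2%). With arrays centred on their detected probes the higher and lower counts became 9 and 34 at 8 weeks, 11 and 27 at 16 weeks, 13 and 39 at 32 weeks, and 18 and 28 at 48 weeks. Centred on all probes they became 7 and 59, 7 and 57, 7 and 59, and 6 and 60 in the same order. Of all genes 61%, 59.7%, 71.1% and 69.9% passed centred on detected probes, and 72.6%, 72.6%, 75.7% and 77% centred on all probes. Over the 4 separate ages 27 members (39.1%) passed in the same direction each time, 11 higher and 16 lower, against 33.6% of all genes. Mrpl13 was among them, with 3.11, 3.21, 3.45 and 2.64 at 8, 16, 32 and 48 weeks. The members that passed in opposite directions at different ages were Mrpl1, Mrpl54 and Mrpl55, 4.35% of members against 3.03% of all genes.

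For 23 members a second probe was above background on at least 6 arrays, which gives a check of 1 measurement by another of the same gene. Both probes passed for 15 of the 23, in the same direction for 8 and in opposite directions for 7 (46.7%). Among all 1884 genes with 2 probes that passed, 43.2% were opposite, a share close to that of the members. In 7 members 1 probe passed and the other did not, and for Mrpl15 neither did. The direction reported for a member with 1 probe carries this limit.

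The 8 members whose probes shared a direction were Mrpl13 and Mrps15, both higher, and Mrpl9, Mrpl35, Mrps31, Mrpl3, Mrps35 and Mrps33, all lower. Mrpl43, Mrps5, Mrpl49 and Mrpl51 were higher by the brightest probe and lower by the second, whose differences were -0.51, -0.58, -0.56 and -0.35. Mrps25, Mrpl1 and Mrpl48 were lower by the brightest probe and higher by the second, at 1.35, 1.05 and 0.35; the second probe of Mrpl1 was above background on 3 of 24 normoxic arrays, so the size of its difference is that of the measured signals only. A wide gap was that of Mrps25, a small subunit protein found only in mitochondria, with -0.24 ± 0.050 by its brightest probe and 1.35 ± 0.0652 by its second (limma, adjusted p = 4.38e-05 and 2.34e-23).

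Detection followed the same lines. The second probe of Mrpl1, the protein of the stalk beside the exit site for spent tRNA, was above background on 24 of 24 I/R arrays and 3 of 24 normoxic arrays. The second probe of Mrpl47 was above background on 17 of 24 I/R arrays and none of 24 normoxic arrays. Its measured means were 6.19 and 5.03 (limma, adjusted p = 3.56e-12), a size that is that of the measured signals only. The brightest probe of Mrpl47 differed by 0.03 (adjusted p = 0.588). The probe sequences were not used here, so which transcripts each probe detects was not examined.

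**Figure D3:**
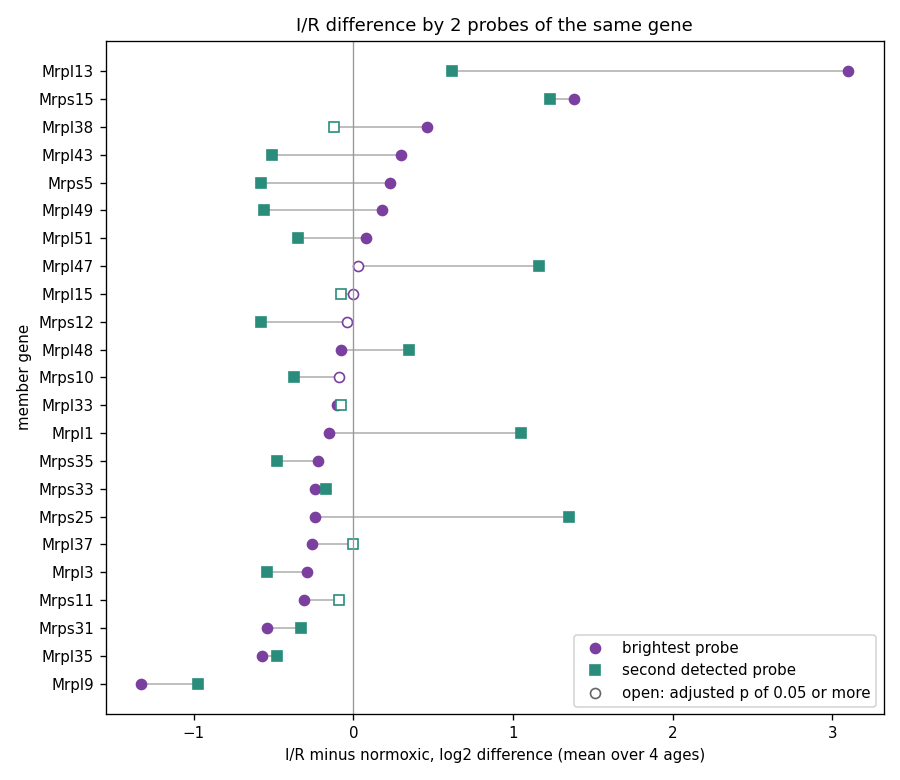
I/R minus normoxic difference (log2, mean over 4 ages) for the 23 members with 2 detected probes, circles for the brightest probe and squares for the second, joined by a line and open where adjusted p was 0.05 or more. The line crosses zero for 7 members whose probes both passed, among them Mrps25 and Mrpl1; the second probe of Mrpl1 was above background on 3 of 24 normoxic arrays.

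In normoxic hearts no age comparison passed the threshold for any of these transcripts. Of 69 members 0 passed at 16 against 8 weeks (0.0408% of all genes passed), 0 at 32 against 8 weeks (1.57%) and 0 at 48 against 8 weeks (1.64%) by limma. At an unadjusted p under 0.05 there were 1, 6 and 7 members in these comparisons, against 5.72%, 11.6% and 10.3% of all genes. A test of any difference among the 4 ages passed for 0 members (1.67% of all genes), with 4 members and 9.66% of all genes at an unadjusted p under 0.05. Differences between 48 and 8 weeks lay between -0.32 and 0.18, with a median of -0.04.

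The members nearest the threshold were as follows. Mrpl34 averaged 10.57 ± 0.183 at 48 weeks and 10.90 ± 0.130 at 8 weeks (SD, n = 6 each), a difference of -0.32 ± 0.119 (limma, adjusted p = 0.219). Mrps28 and Mrpl37 were at -0.20 and -0.19, and Mrpl28 at 0.18, with adjusted p of 0.335 to 0.355. At 32 against 8 weeks Mrpl4 was at -0.28 ± 0.0874 (adjusted p = 0.0965), Mrpl23 at -0.29, Mrps28 at -0.23 and Mrps23 at 0.14, with adjusted p of 0.129 to 0.283 for the last 3. Mrpl4 passed when arrays were weighted by quality and in the authors' deposited values, as the only member to do so. At 16 against 8 weeks the smallest adjusted p was 0.789 (Mrpl21, -0.16), and Mrps9, Mrpl54 and Mrpl22 were at 0.13, -0.12 and -0.10. From 32 to 48 weeks 0 members passed, as did 0% of all genes.

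In I/R hearts the ages did differ, though not between 8 and 16 weeks for any member past the threshold. At 16 against 8 weeks 0 members passed (1.73% of all genes; 1 member, and 14.2% of all genes, at an unadjusted p under 0.05, limma). At 32 against 8 weeks 43 members passed, 62.3% against 39.8% of all genes: 12 were higher (17.6% of all genes) and 31 lower (22.2% of all genes). The median difference was -0.15 for members and -0.02 for all genes. At 32 against 16 weeks 35 passed (36.9% of all genes). At 48 against 8 weeks 34 passed (39.3% of all genes), 13 higher (18.6%) and 21 lower (20.7%). At 48 against 32 weeks 8 passed (7.19% of all genes), 6 higher (2.78%) and 2 lower (4.4%). A difference among any of the ages in I/R hearts passed for 44 members (52.7% of all genes). With arrays centred on all probes the splits at 32 and 48 against 8 weeks became 6 higher and 33 lower, and 4 higher and 35 lower. Centred on the detected probes they became 12 and 27, and 13 and 13. Of all genes 33.3% and 38.3% passed centred on all probes, and 36.6% and 37.6% centred on detected probes. The count at 32 against 8 weeks rests on the brightest probes. Of 23 members with a second detected probe, both probes passed in that comparison for 2, only 1 for 14 and neither for 7. Among all 2813 genes with 2 detected probes, both passed for 373 and only 1 for 1196. By the second probe alone 5 of the 23 members passed. Taking the second probe where a gene had 1, 32.7% of all genes passed. The I/R hearts of 32 and 48 weeks are also those set apart on the second principal component and with lower RNA integrity. With the RNA integrity number in the model 11 members were higher and 31 lower at 32 against 8 weeks (37% of all genes passed). Of 6 endothelial markers 1 was higher and 3 were lower in that comparison, and of 6 fibroblast markers 2 were lower; their part in these differences was not tested.

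**Figure D4:**
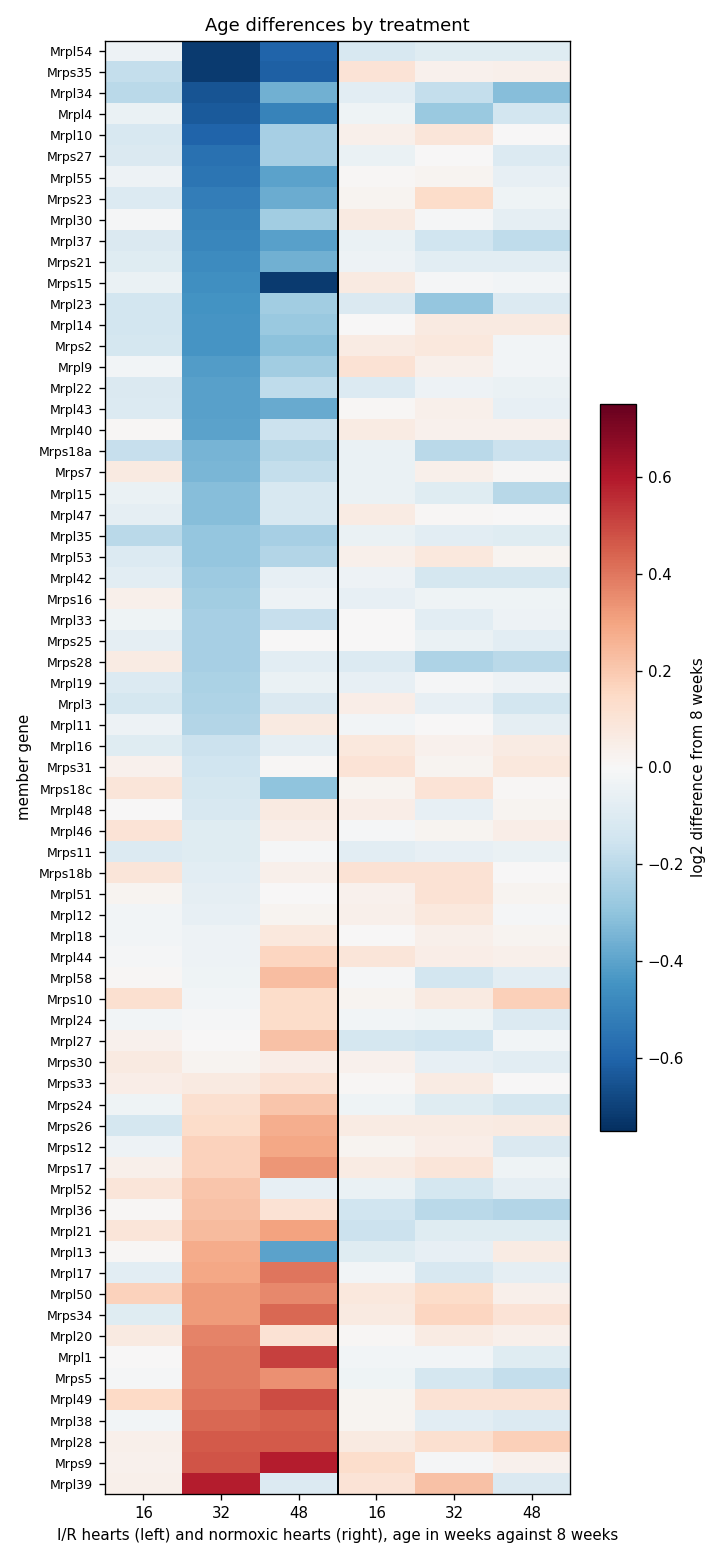
Log2 difference from 8 weeks (colour, red higher and blue lower) at 16, 32 and 48 weeks for each of the 69 members, I/R hearts left of the black line and normoxic hearts right of it, ordered by the difference at 32 weeks in I/R hearts. The colours are pale in the I/R column for 16 weeks and in all normoxic columns, and strong at 32 and 48 weeks in I/R hearts, up to 0.72 below and 0.59 above 8 weeks.

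Mrpl54, a large subunit protein found only in mitochondria, led the differences among ages in I/R hearts (limma, adjusted p = 4.17e-11 for any age difference). In I/R hearts its lowest, median and highest values were 11.19, 11.38 and 11.59 at 8 weeks and 11.23, 11.35 and 11.43 at 16 weeks. They were 10.55, 10.67 and 10.72 at 32 weeks and 10.69, 10.78 and 10.90 at 48 weeks. The I/R hearts of the 2 younger ages thus lay wholly above those of the 2 older ages.

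Mrps23 was arranged alike in I/R hearts, with 11.34, 11.46 and 11.50 at 8 weeks, 11.26, 11.34 and 11.43 at 16 weeks, 10.75, 10.92 and 11.05 at 32 weeks, and 10.95, 11.07 and 11.20 at 48 weeks. Mrps9, near the site that holds the growing chain's tRNA, ran the opposite way: 10.74, 10.84 and 10.95 at 8 weeks, 10.65, 10.90 and 11.12 at 16 weeks, 11.14, 11.33 and 11.48 at 32 weeks, and 11.32, 11.44 and 11.49 at 48 weeks. For both genes the 2 younger ages did not overlap the 2 older ones. At 48 against 8 weeks the differences were -0.37 ± 0.0559 for Mrps23 and 0.59 ± 0.0777 for Mrps9 (limma, adjusted p = 8.48e-07 and 5.42e-08).

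At 48 against 8 weeks in I/R hearts, Mrpl1 (0.51), Mrpl49 (0.49), Mrpl28 (0.46) and Mrps34 (0.43) were higher, with limma adjusted p between 1.11e-07 and 4.64e-05. Mrps34, known in humans from a form of Leigh syndrome, was at 0.25 and did not pass when arrays were centred on all probes (adjusted p = 0.0574). Mrpl1 was at 0.07 with the mean of its detected probes (adjusted p = 0.587). Mrps15 (-0.72), Mrps35 (-0.61), Mrpl54 (-0.60), Mrpl4 (-0.50), Mrpl37 (-0.41) and Mrps21 (-0.36) were lower, with adjusted p between 1.50e-07 and 0.000106. In each of these 10 genes, picked by their small p in this comparison, the I/R hearts of the 2 ages did not overlap. Among all 69 members 25 did not overlap (36.2%), against 18.3% of all genes. Second probes gave -0.38 for Mrpl1, 0.22 for Mrps35, 0.10 for Mrpl49, -0.41 for Mrps15 and -0.57 for Mrpl37, so that Mrpl1 and Mrps35 had the opposite direction.

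Mrps27 (-0.56), Mrpl55 (-0.55), Mrpl30 (-0.50) and Mrps21 (-0.47) were also among the leading members for any age difference in I/R hearts, and each was lower at 32 against 8 weeks (limma, adjusted p between 1.39e-08 and 1.76e-06). At 48 against 32 weeks the 8 members that passed were these: Mrps27 was higher by 0.31, Mrpl40 by 0.24, Mrpl42 by 0.21, Mrpl11 by 0.29, Mrpl30 by 0.24 and Mrpl22 by 0.22, and Mrpl13 and Mrpl39 were lower by 0.68 and 0.69 (limma, adjusted p between 0.00107 and 0.0481). Centred on all probes, 0 members were higher and 2 lower in this comparison, and centred on detected probes 2 were higher and 2 lower. Under these centrings 5.23% and 4.03% of all genes passed, in that order.

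Whether the I/R difference itself depended on age was tested over the 4 ages at once. The test passed for 30 of 69 members (43.5%), against 29.2% of all genes (limma). Between 16 and 8 weeks the I/R difference changed for 0 members (0.0102% of all genes; 1 member, and 5.59% of all genes, at an unadjusted p under 0.05). Between 32 and 8 weeks it changed for 27 (23% of all genes), 8 upward (9.85%) and 19 downward (13.1%), and between 48 and 8 weeks for 20 (21.4% of all genes), 13 upward (10.3%) and 7 downward (11.1%). Centred on all probes these became 2 and 17, and 0 and 21, and centred on detected probes 9 and 11, and 14 and 4. The all-gene shares that passed were 19% and 25% centred on all probes, and 21% and 19.4% centred on detected probes. Since both treatments enter this test at each age, it shares its hearts with the age comparisons above.

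Mrps23 had the smallest p (adjusted p = 5.57e-08), with I/R differences of -0.41, -0.53, -1.07 and -0.75 at 8, 16, 32 and 48 weeks. The I/R hearts lay below the normoxic hearts at all 4 ages, and by the most at 32 weeks. Mrps27 followed the same course with -0.25, -0.30, -0.81 and -0.40, and Mrpl40 with -0.21, -0.27, -0.65 and -0.40 (adjusted p = 4.89e-05 and 0.000944).

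A second set gained a rise with age in the main fit. Mrps9 was at 0.03 and -0.06 at 8 and 16 weeks and at 0.51 and 0.59 at 32 and 48 weeks (adjusted p = 3.35e-06). In normoxic hearts Mrps9 stayed between 10.57 and 11.15 over all ages. Mrps5, beside the channel through which messenger RNA enters, was at -0.04, -0.02, 0.48 and 0.48 in order of age, Mrpl38 at 0.21, 0.17, 0.72 and 0.76, and Mrpl17 at 0.28, 0.22, 0.70 and 0.75 (adjusted p = 6.11e-05, 0.000407 and 0.00171). The second probes of Mrps5 and Mrpl38 did not share the age dependence, with adjusted p of 0.253 and 0.996. Of these 4 genes, Mrps5, Mrpl38 and Mrpl17 did not pass when arrays were centred on all probes (adjusted p = 0.118, 0.182 and 0.285), and with the mean of all detected probes Mrps5 and Mrpl38 did not pass (0.987 and 0.444). Centred on all probes, all 4 were lower in I/R hearts in the mean over ages. Mrps9 was at -0.47, Mrps5 at -0.52, Mrpl38 at -0.28 and Mrpl17 at -0.21.

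In others the sign of the I/R difference was not the same at all ages in the main fit. Such signs rest on the scaling: centred on all probes, only 7 members were higher at 8 weeks and 7 at 16 weeks. Mrpl54 was higher in I/R hearts at 8 and 16 weeks (0.19 and 0.27) and lower at 32 and 48 weeks (-0.44 and -0.31), each past the threshold (adjusted p = 2.36e-06 for the dependence on age). Mrpl55 was at 0.32, 0.27, -0.26 and -0.02, and Mrps35 at 0.19, -0.08, -0.55 and -0.45, of which the values at 32 and 48 weeks passed (adjusted p = 0.000603 and 0.000144). By its second probe Mrps35 did not pass the test of dependence on age (adjusted p = 0.0695). Mrpl1 was at -0.41, -0.39, 0.00 and 0.19 in order of age (adjusted p = 3.19e-06), but did not pass when arrays were centred on all probes (0.121) or with the mean of its detected probes (0.487). In I/R hearts its values were 9.88, 10.04 and 10.24 at 8 weeks and 10.47, 10.55 and 10.78 at 48 weeks, against 10.42, 10.46 and 10.59 at 8 weeks and 10.34, 10.39 and 10.45 at 48 weeks in normoxic hearts. Mrps7, higher in I/R hearts throughout, was at 0.65, 0.77, 0.27 and 0.46 (adjusted p = 0.0019).

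**Figure D5:**
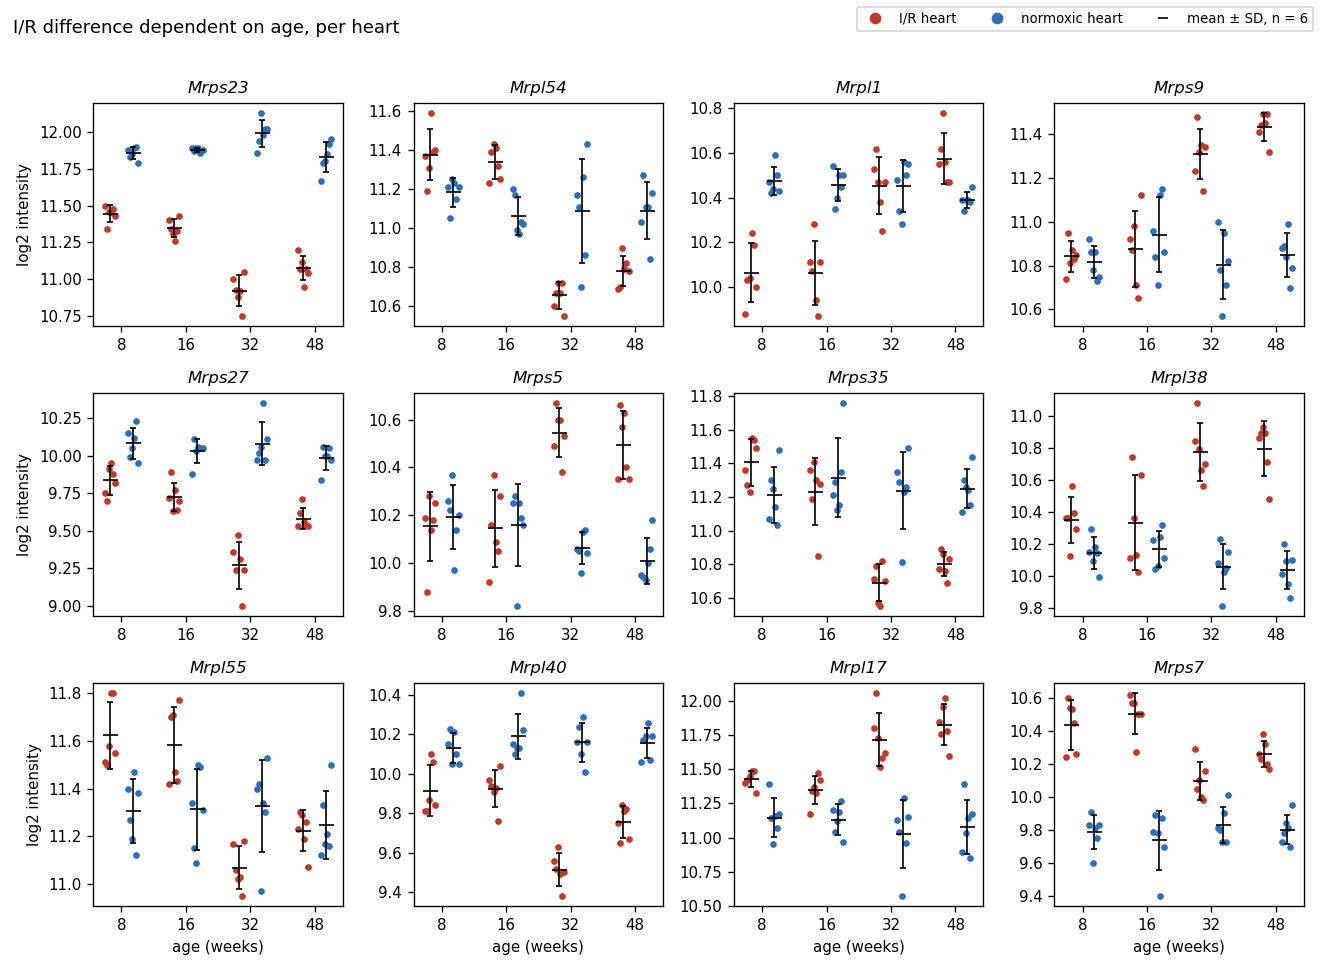
Log2 intensity per heart by age (weeks) for the 12 members with the smallest p for an I/R difference that depends on age, I/R hearts in red to the left of normoxic hearts in blue, with mean ± SD (n = 6). The blue points show no age difference past the threshold, while the red points shift between 16 and 32 weeks, downward in Mrps23, Mrpl54 and Mrps27 and upward in Mrps9 and Mrpl1.

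Other genes of mitochondrial translation were examined for context. Of 4 measured genes for mitoribosome proteins with other names, 3 rose and 1 fell with I/R. Ptcd3 rose by 0.47, Dap3, a GTP-binding protein of the small subunit, by 0.42 (second probe 0.20) and Mrpl58 (also a member) by 0.34. Chchd1 was at -0.15. Of 13 measured genes for mitochondrial translation factors 2 rose and 8 fell. The elongation factors Tufm and Tsfm fell by 0.30 and 0.37, the initiation factor Mtif2 was at -0.90 with a second probe at 0.58, and the release factor Mtrf1l rose by 1.30. Of 16 genes for aminoacyl-tRNA synthetases and related enzymes 4 rose and 7 fell. The 4 with the smallest p were Gatb (1.60, second probe -0.44), Aars2 (1.25, above background on 24 of 24 I/R arrays and 11 of 24 normoxic arrays), Gars (-0.41) and Mars2 (-0.76, second probe -0.57).

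Of 21 genes for assembly of the ribosome and modification of its RNA 6 rose and 12 fell. Rcc1l and the RNA methyltransferase Tfb1m rose by 1.55 and 0.78, and the assembly factor Rbfa and the methyltransferase Mrm3 fell by 0.98 and 0.89. Of 21 genes for transcription of mitochondrial DNA and RNA processing 7 rose and 11 fell. Lrpprc, which stabilises mitochondrial messenger RNA, was above background on 5 of 24 I/R arrays and 24 of 24 normoxic arrays, with measured signals that differed by -1.65. Trmt10c and Hsd17b10, subunits of mitochondrial RNase P, rose by 1.35 and 1.24 together with the helicase subunit Supv3l1 at 0.86. Each of these gene sets went in both directions, as the ribosomal protein genes did. The share that passed was 68.8% to 100% against 78.9% of all genes.

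For comparison, 24 of 50 cytosolic ribosomal protein genes rose and 16 fell with I/R (median 0.11). Of 31 complex I subunit genes 14 rose and 13 fell (median 0.01). Of all genes 34.6% rose and 44.4% fell. At 32 against 8 weeks in I/R hearts 4 of 50 cytosolic ribosomal protein genes were higher and 15 lower (38.0% passed). Of 31 complex I genes 2 were higher and 15 lower (54.8% passed). By the brightest probes 62.3% of the mitochondrial ribosomal protein genes and 39.8% of all genes passed. The I/R difference depended on age for 28.0% of the cytosolic set and 19.4% of the complex I set. It did so for 43.5% of the mitochondrial ribosomal set and 29.2% of all genes. By second probes 5 of 23 members passed at 32 against 8 weeks in I/R hearts and 5 of 23 for dependence on age. Differences between these sets were not tested.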

How the data were processed

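The non-normalised table deposited by the authors gives a signal intensity and a detection score (a fraction from 0 to 1) per probe and array. Its header calls the score a p-value, but it rises with the signal, so 1 minus the score was used. The deposited series table holds the authors' processed log2-scale values, made with lumi per the submitters' processing notes; their transform is not given in the sources used here, and they served as an alternative. Of 46628 lines, 4 without an identifier were left out. With limma 3.58.1 in R 4.3.3, background was corrected by normexp from the detection values (offset 16), and arrays were quantile normalised and log2 transformed. Probes with 1 minus the score under 0.05 on at least 6 of 48 arrays were kept (17624), and the brightest probe stood for each of 9811 genes. Symbols came from GEO's platform annotation, where 29971 probes had 1 symbol and 10 had several, updated through RefSeq for 29916.

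A linear model with 8 group means was fitted to all 48 arrays (limma lmFit and eBayes), with Benjamini-Hochberg adjustment over all genes at 0.05. Second probes were tested in the same model over all 17624 probes, so the adjusted p of a brightest probe in a pair comes from that fit. The model fit was tested on simulated log2 values with known changes. Background correction, scaling and probe choice were not part of that test. A group of 6 hearts limits precision; each array is a separate heart per the labels, and p-values measure the spread between hearts. Named genes were the 12 largest rises and 12 largest falls that passed for I/R, up to 12 by smallest p for each age test that passed (the 4 smallest where none did), every gene with a second probe, and the 4 smallest p of each related list. Others named in the age comparisons and for their roles were chosen after their values were seen. Members and lists were chosen with earlier results of these data known. Replicate numbers did not pair the samples: the correlation of deviations of same-numbered hearts averaged 0.00359 (-0.212 to 0.206).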

Additional observations from a re-analysis of the deposited data

Results flagged for a closer look

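In 12 of 320 groups of 6 hearts (40 named genes in 8 groups), 1 heart stood apart from the other 5 by Dixon's criterion; chance gives about 1 in 20. In I/R hearts these were Mrpl23 at 11.59 (32 weeks, replicate 4), Mrpl44 at 9.21 (16 weeks, replicate 5) and 9.20 (32 weeks, replicate 5), Mrpl49 at 10.03 (48 weeks, replicate 6), Mrps5 at 9.88 (8 weeks, replicate 2) and Mrps7 at 10.27 (16 weeks, replicate 4). In normoxic hearts they were Mrpl23 at 12.16 (48 weeks, replicate 5), Mrpl34 at 10.65 (8 weeks, replicate 3), Mrpl39 at 5.29 (48 weeks, replicate 4), Mrps27 at 9.88 (16 weeks, replicate 1), Mrps35 at 11.76 (16 weeks, replicate 6) and Mrps5 at 9.82 (16 weeks, replicate 3). All are log2 intensities.

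The I/R difference depended on age, by limma's test over the 4 ages, for Mrps23 (adjusted p = 5.57e-08), Mrpl54 (2.36e-06), Mrpl1 (3.19e-06), Mrps9 (3.35e-06), Mrps27 (4.89e-05), Mrps5 (6.11e-05), Mrps35 (0.000144), Mrpl38 (0.000407), Mrpl55 (0.000603), Mrpl40 (0.000944), Mrpl17 (0.00171) and Mrps7 (0.0019). Of these, Mrpl1, Mrps5, Mrpl38 and Mrpl17 did not pass when arrays were centred on all probes (adjusted p = 0.121, 0.118, 0.182 and 0.285). Mrps35, Mrps5 and Mrpl38 did not pass by their second probes (0.0695, 0.253 and 0.996). With the mean of detected probes Mrpl1, Mrps5 and Mrpl38 did not pass (0.487, 0.987 and 0.444).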

How the results depend on the processing

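Of 266 recalculations of 23 counts and medians under other settings, 237 kept the count within 1.5 times or the median within the spread between hearts. The second brightest probe, which only 23 members have, gave 18 members past the threshold for I/R (6 higher, 12 lower). Its median was -0.17, and 4 members were at least 2-fold higher. It gave 17, 17, 19 and 13 at 8, 16, 32 and 48 weeks. In I/R hearts it gave 5 at 32 against 8 weeks (1 higher, 4 lower) and 8 at 48 against 8 weeks. It gave 12 for any age difference in I/R hearts. It gave 5 for an I/R difference that depends on age and 3 for its change from 8 to 32 weeks. Taking the second probe where a gene had 1, 78.9% of all genes passed for I/R. At the 4 ages 51.9%, 54%, 64% and 61.9% did. In I/R hearts 32.7% did at 32 against 8 weeks and 32.9% at 48 against 8 weeks. The I/R difference changed from 8 to 32 weeks for 16.9% of all genes. Having fewer members lowers the member counts, but some of their shares fell too. At 32 against 8 weeks in I/R hearts 5 of 23 passed, against 43 of 69 by the brightest probe. The I/R difference depended on age for 5 of 23, against 30 of 69. For I/R the shares were closer, 18 of 23 against 56 of 69. Centring arrays on all probes gave 7 higher and 62 lower for I/R (median -0.77), where 87.7% of all genes passed. It gave 66 members at 8 weeks and 64 at 16 weeks, where 72.6% of all genes passed at each age. It also gave 6 higher at 32 against 8 weeks in I/R hearts, 4 at least 2-fold higher and 3 opposite probe pairs. Centring on detected probes, added after seeing the data, gave a median of -0.17. The authors' values gave 4 members at least 2-fold higher. The authors' values and, separately, array weights each gave 1 member (Mrpl4) at 32 against 8 weeks in normoxic hearts. The RNA integrity number as a covariate gave 45 members for I/R (19 higher, 26 lower) and 4 opposite pairs. At 8, 16, 32 and 48 weeks it gave 34, 31, 43 and 38 members. Turned directions were Mrps7 (-0.20), Mrpl17 (-0.21), Mrpl38 (-0.28), Mrpl28 (-0.27) and Mrpl58 (-0.38) for I/R when centred on all probes, and by second probe Mrpl38 (-0.12) for I/R, Mrpl1 (-0.38) and Mrps35 (0.22) at 48 against 8 weeks in I/R hearts. Calls lost when centred on all probes were Mrps34 at 48 against 8 weeks in I/R hearts (0.25, adjusted p = 0.0574) and the dependence on age of Mrpl1, Mrps5, Mrpl38 and Mrpl17 (0.118 to 0.285). The cause of these shifts was not tested.

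Leaving out 1 heart at a time gave 54 to 58 members for I/R (23 to 25 higher, 31 to 34 lower, 7 at least 2-fold higher each time; median -0.07 to -0.05), 35 to 39, 37 to 40, 48 to 54 and 41 to 46 at the 4 ages, and 5 to 7 opposite pairs. In I/R hearts it gave 0 at 16 against 8 weeks, 39 to 43 at 32 against 8 weeks (11 to 13 higher, 27 to 31 lower), 30 to 34 at 48 against 8 weeks and 42 to 45 for any age difference. The I/R difference depended on age for 28 to 32 members and changed from 8 to 32 weeks for 23 to 27. In normoxic hearts it gave 0 members at 16 and 48 against 8 weeks and for any age difference (median at 48 weeks -0.05 to -0.02), and 0 to 1 at 32 against 8 weeks: 1 without replicate 6 of 8 weeks, or replicate 4 or 6 of 32 weeks. With the replicate number as a block, 25 members were higher and 31 lower for I/R, and no count moved by over 1.5 times; 6 of 48 hearts correlated best with a heart of their own number. The offset of 16 added before the log2 step compresses differences near background, which limits Mrpl39, Mrpl10 and the dim second probes.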
